A study of Mus musculus with 13 samples.

Results

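The hedgehog pathway genes described here are the 3 mammalian hedgehog ligands (Shh, Dhh, and Ihh), the receptor Ptch1 and the ligand-binding inhibitor Hhip, the signal transducer Smo, and the transcription factors Gli1, Gli2, and Gli3. They were chosen by name, as genes of the pathway, with earlier results of these data known, and all 9 were found among the 40787 genes of the expression table. RNA was sequenced from 13 sciatic nerves of C57BL/6 mice at 5 d post crush (dpc), with 1 library per nerve. Rptor encodes Raptor, a subunit of the kinase complex mTORC1. In RaptorKO mice floxed Rptor alleles were deleted by a tamoxifen-inducible Cre that is active mainly in Schwann cells (SCs). Controls carried the floxed Rptor alleles without Cre, and both genotypes received tamoxifen at 2 months of age and a unilateral crush 2 months later. Injured nerves were sampled from 3 controls and 3 RaptorKOs, and uninjured contralateral nerves from 3 controls and 4 RaptorKOs. RNA came from whole nerve tissue without epineurium, on the injured side from the nerve distal to the crush. Fewer cells of a type and less RNA per cell thus cannot be told apart.

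Hedgehog ligands are secreted, lipid-modified proteins that bind Ptch1. In the absence of ligand Ptch1 holds Smo inactive. When ligand binds, Smo is released at the primary cilium, Gli2 and Gli3 are no longer processed to repressors, and target genes are transcribed, among them Ptch1, Hhip, and Gli1 itself. In peripheral nerves Dhh is made by SCs and acts on the mesenchymal cells that form the perineurium, while Shh is known as a gene that SCs switch on after injury.

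Library totals ranged from 8200458 to 13581775 counts, and values are given as CPM, that is, counts scaled by library total and by the TMM factors of edgeR. Rptor had a mean of 49.7 CPM (SD 4.99, n = 3) in control and 24.6 CPM (SD 2.58, n = 4) in RaptorKO contralateral nerves. In injured nerves it had 42.3 CPM (SD 6.83, n = 3) in controls and 26.1 CPM (SD 2.73, n = 3) in RaptorKOs. Both libraries of control replicate 3 held 15017 and 14462 Xist counts and 10 and 20 counts of Y-linked genes, unlike the other 11 libraries. SC markers were present in every library, with a summed level of 9 genes of 67600 to 74615 CPM in control contralateral nerves. Adipocyte markers summed to at most 134 CPM and skeletal muscle markers to at most 25.9 CPM. A gene was tested where at least 2 libraries of a comparison held 50 counts, and was called where its Benjamini-Hochberg (BH) adjusted p was below 0.05 and its fold change above 1.2. Comparisons used edgeR's quasi-likelihood test. Libraries of a group come from separate mice, and an injured and a contralateral nerve with the same number were read from the titles as those of 1 mouse. The 4 comparisons share libraries and are given side by side.

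The 3 ligand genes are close relatives, and the sequences below are shown because the results turn on telling Shh from Dhh reads. They cover the same 90 coding bases of each gene in GRCm38, all within exon 2 and on the minus strand. They lie at chr5:28461362-28461451 for Shh (transcript ENSMUST00000002708.4), chr15:98894853-98894942 for Dhh (ENSMUST00000023737.5), and chr1:74948344-74948433 for Ihh (ENSMUST00000164097.3). Capitals mark the bases that are not shared by all 3 genes.
Shh: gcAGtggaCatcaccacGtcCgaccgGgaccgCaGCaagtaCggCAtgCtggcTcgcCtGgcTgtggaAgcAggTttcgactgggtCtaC
Dhh: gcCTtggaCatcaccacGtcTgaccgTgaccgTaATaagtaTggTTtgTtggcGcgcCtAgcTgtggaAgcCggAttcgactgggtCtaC
Ihh: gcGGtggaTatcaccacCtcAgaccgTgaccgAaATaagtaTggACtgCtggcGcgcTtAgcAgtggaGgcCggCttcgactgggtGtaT
This was the 90-base stretch in which the coding sequences of Shh and Dhh were most alike, and 68 of 90 bases were common to all 3. Dhh matches Shh at 75 bases (83.3%) and Ihh matches Shh at 70 bases (77.8%). Over the whole transcripts the longest identical run was 17 bases between Shh and Dhh, 17 between Shh and Ihh, and 16 between Dhh and Ihh.

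In uninjured nerves the pathway was led by a single ligand, Dhh. Levels between genes were compared as CPM per kilobase of merged exons. This length joins all annotated exons of a gene, used or not, so the order between genes depends on it. It is 14185 bases for Ptch1 and 5621 for Smo. Before division by length Ptch1 had more than Smo in control contralateral nerves, 217 CPM (SD 16.4, n = 3) against 98.4 CPM (SD 1.65, n = 3). In control contralateral nerves Dhh had 72.1 CPM per kb (SD 8.56, n = 3). The transducer Smo followed with 17.5 (SD 0.29), then Ptch1 with 15.3 (SD 1.16) and Gli1 with 11.1 CPM per kb (SD 1.96), and the ranges of these neighbors did not overlap. Gli2 with 3.13 (SD 0.16) and Shh with 3.09 CPM per kb (SD 0.64) overlapped. Gli3 came next with 0.66 CPM per kb (SD 0.08), and Hhip and Ihh were lowest and overlapped. In RaptorKO contralateral nerves Dhh was again first with 71.3 CPM per kb (SD 8.11, n = 4), and Ptch1, Smo, and Gli1 followed with overlapping ranges.

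In injured nerves Shh stood first. It had 75.2 CPM per kb (SD 4.62, n = 3) in controls and 52.8 CPM per kb (SD 18.1, n = 3) in RaptorKOs, against 19.4 (SD 2.12) and 18.8 CPM per kb (SD 2.55) of Dhh. The lowest Shh library lay above the highest Dhh library in both injured groups. Smo followed Dhh in both injured groups.

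**Figure D1:**
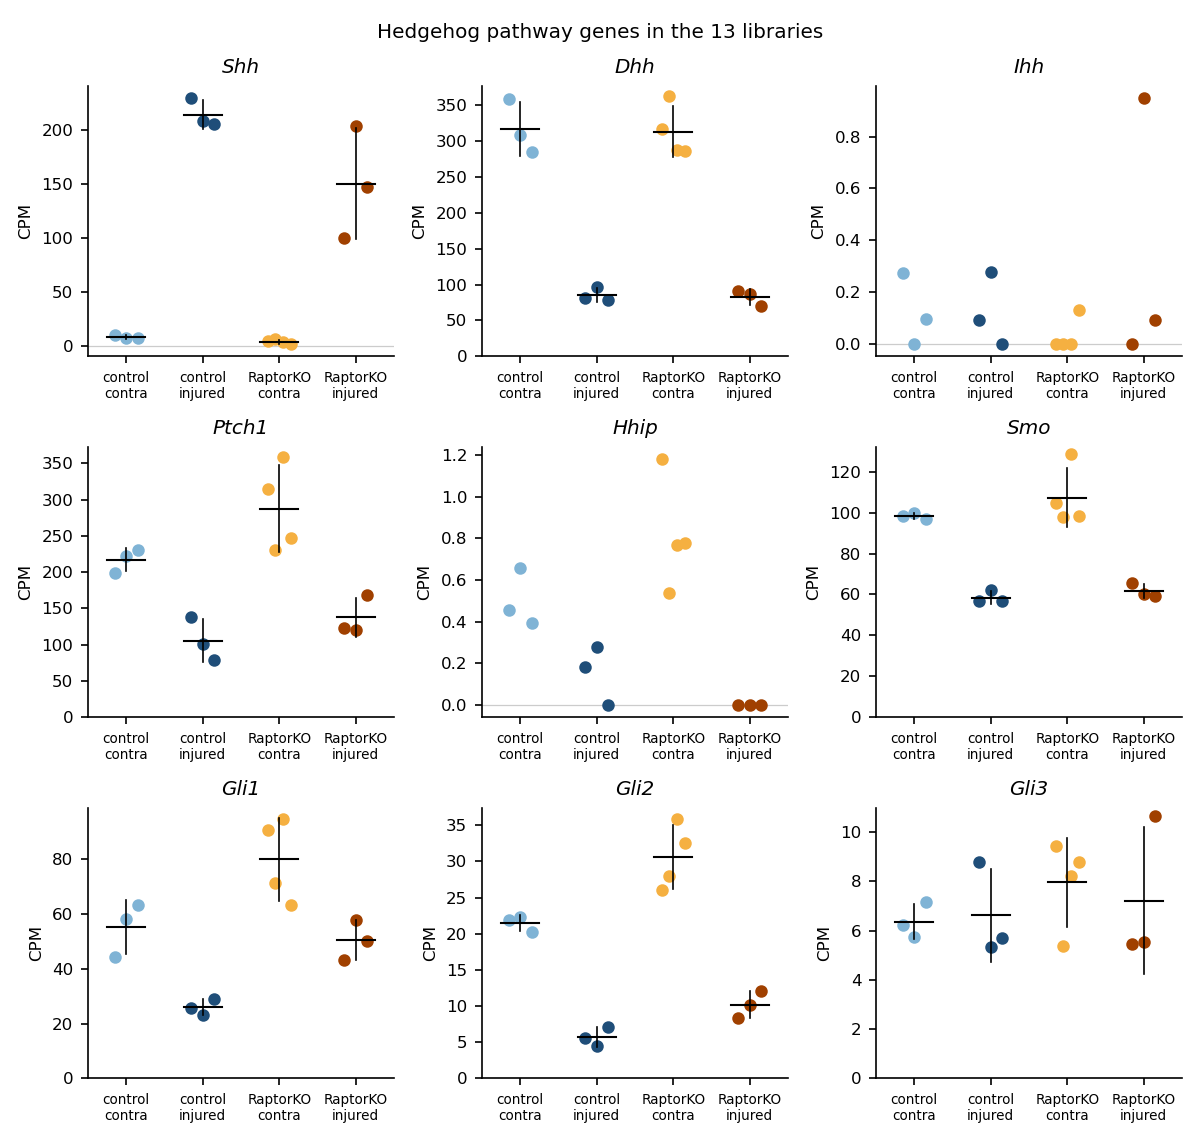
Levels of the 9 hedgehog pathway genes in each library in CPM (y axes differ and are linear), by group on the x axis. Points are libraries, and bars are the mean and SD (not drawn for Ihh and Hhip, which have few counts). Shh is high in injured nerves only, whereas Dhh, Ptch1, Smo, Gli1, and Gli2 lie lower in every injured library than in any contralateral library of the same genotype.

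Injury to control nerves was compared first. Of the 7 members with enough counts, 1 rose and 5 fell, where 32.4% of all 12430 genes tested were called higher and 32.9% lower. The median log2 fold change was -1.07 for the members and -0.0015 for all genes tested. In RaptorKO nerves 1 member rose and 5 fell as well, where 30.5% of 12515 genes tested were called higher and 28.5% lower, with a median of -0.80 for the members and 0.03 for all genes. Counting also the low-count member Hhip, 1 member lay wholly higher and 6 wholly lower on the injured side, where 36.2% and 34.7% of the genes tested did so in controls and 31.7% and 28.8% in RaptorKOs. Shh was the member called higher, and Dhh, Ptch1, Smo, Gli1, and Gli2 were those called lower, in both genotypes.

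Shh (ENSMUSG00000002633, chr5:28456815-28467256) was low without injury. It had 10.9, 7.45, and 8.04 CPM in control contralateral nerves and 229, 208, and 205 CPM in control injured nerves. In RaptorKOs it had 4.93, 6.74, 3.73, and 2.20 CPM in contralateral and 100, 203, and 148 CPM in injured nerves. Every injured library was above every contralateral library. As groups the sides differed 23.9-fold in controls (log2 fold change 4.58, SE 0.13, BH-adjusted p = 1.16e-10, edgeR quasi-likelihood test) and 32.9-fold in RaptorKOs (5.04, SE 0.32, adjusted p = 3.42e-07, edgeR quasi-likelihood test). The contralateral values rest on 17 to 119 counts per library. Exons of Shh overlap the antisense genes 9530036O11Rik and Gm26894 over 28.3% of their length, and these had at most 6.19 CPM in any library. Gm26894 had 0.41 to 2.25 CPM in control contralateral and 5.41 to 6.19 CPM in control injured nerves. In RaptorKOs it had 0.13 to 1.07 and 2.57 to 3.30 CPM. The use of strand in counting is not given, so their part in the low contralateral Shh values is not known. Repair SC markers, among which Shh was not counted, moved with it: 7 of 7 tested were called higher in each genotype, and the sum of 9 genes was 84.5 to 114 CPM in control contralateral and 2169 to 2537 CPM in control injured nerves. In RaptorKOs the sum was 123 to 129 CPM in contralateral and 1780 to 2320 CPM in injured nerves. The part of these cells in the change of Shh was not tested. Of the repair list, Artn, Bdnf, and Olig1 had at most 3 counts in every contralateral library, and Bdnf in every RaptorKO injured library.

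Dhh (ENSMUSG00000023000, chr15:98891152-98898540) changed in the opposite direction. Control contralateral nerves had 358, 309, and 285 CPM and control injured nerves 81.4, 96.1, and 79.0 CPM. RaptorKOs had 318, 362, 288, and 286 CPM in contralateral and 91.2, 86.8, and 70.0 CPM in injured nerves. The 2 sides did not overlap in either genotype, and Dhh fell 3.78-fold in controls (log2 fold change -1.92, SE 0.12, BH-adjusted p = 4.17e-08, edgeR quasi-likelihood test) and 3.81-fold in RaptorKOs (-1.93, SE 0.13, adjusted p = 5.20e-07, edgeR quasi-likelihood test). Most SC markers moved with it, with 7 of 9 called lower in controls, and 6 of 9 called lower and 1 higher in RaptorKOs. Their sum was 4206 to 4729 CPM in control injured, 58886 to 71230 CPM in RaptorKO contralateral, and 2919 to 3526 CPM in RaptorKO injured nerves, and no marker of the list was at 3 counts or fewer throughout a group. Their part in the fall of Dhh was not tested. Exons of Dhh overlap those of Rhebl1 and the antisense gene Gm49442 over 37.6% of their length. Rhebl1, which lies on the same strand, had at most 4.5 CPM, and the level of Gm49442 was not examined.

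Together these changes reversed the proportion of the ligand transcripts. This proportion was formed after the member values had been seen. On the per-kilobase scale Shh made up 3.60% to 4.48% of the sum of Shh and Dhh in control contralateral nerves and 77.0% to 81.3% in control injured nerves. In RaptorKOs the share was 1.17% to 2.79% in contralateral and 63.0% to 78.3% in injured nerves. The injured and contralateral shares did not overlap in either genotype (exact permutation, two-sided, p = 0.10 in controls and 0.0286 in RaptorKOs, which is as small as the group sizes permit, and 0.24 and 0.171 after BH adjustment over 12 tests of derived quantities). The summed level itself was 67.5 to 85.3 CPM per kb in control contralateral and 89.9 to 99.0 in control injured nerves. In RaptorKOs it was 65.9 to 84.8 CPM per kb in contralateral and 56.0 to 91.1 in injured nerves, which overlapped.

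**Figure D2:**
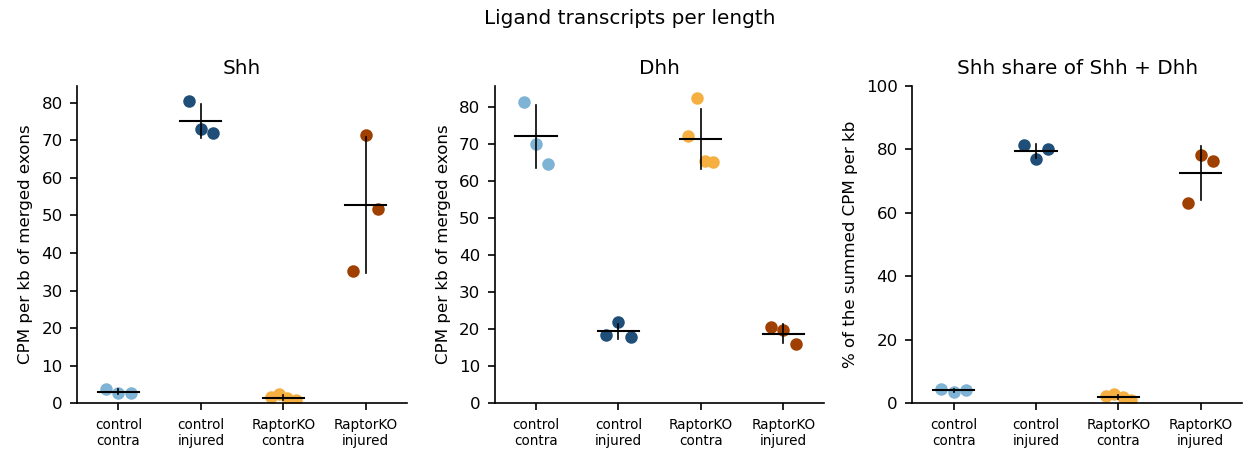
Shh and Dhh in CPM per kb of merged exons, and the share of Shh in their sum in percent, by library and group, with bars for the mean and SD. Shh makes up at most 4.48% of the sum in the contralateral libraries and 63.0% to 81.3% in the injured libraries.

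Ihh (ENSMUSG00000006538), the remaining ligand, was at the limit of detection. It had 0 to 3 counts in 12 libraries and 12 counts in RaptorKO injured 2. A count of 0 over a whole group would allow up to 3 counts, or 0.074 to 0.094 CPM depending on the group, for counting error only.

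Ptch1 (ENSMUSG00000021466, chr13:63508328-63573598), the receptor and itself a target of the pathway, fell after injury in both genotypes. It had 199, 223, and 230 CPM in control contralateral and 138, 101, and 78.5 CPM in control injured nerves. RaptorKO nerves had 315, 230, 358, and 247 CPM on the contralateral and 123, 121, and 169 CPM on the injured side. Ptch1 was 2.09-fold lower in control injured nerves (log2 fold change -1.07, SE 0.16, BH-adjusted p = 9.75e-05, edgeR quasi-likelihood test) and 2.10-fold lower in RaptorKO injured nerves (-1.07, SE 0.18, adjusted p = 0.000405, edgeR quasi-likelihood test), without overlap of the sides.

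Hhip (ENSMUSG00000064325), which sequesters ligand and is a pathway target, was too low for the fit across genes. It had 5, 8, and 4 counts in control contralateral nerves and 2, 3, and 0 in control injured nerves. RaptorKO contralateral nerves had 11, 7, 8, and 6 counts and the 3 RaptorKO injured nerves had none. With 3 counts over the group as the floor, the pooled level was at least 9.14-fold lower in RaptorKO injured than in RaptorKO contralateral nerves (exact permutation of log2 CPM, two-sided, p = 0.0286, which is as small as 4 against 3 libraries permit). The control sides were also apart (exact permutation, two-sided, p = 0.10, which is as small as 3 against 3 libraries permit). Injured nerves of the 2 genotypes overlapped.

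Smo (ENSMUSG00000001761, chr6:29735503-29761365) had the smallest SE of the tested members in each of the 4 comparisons. It had 98.3, 100.0, and 96.7 CPM in control contralateral and 56.8, 62.1, and 56.6 CPM in control injured nerves. RaptorKOs had 105, 97.9, 128, and 98.5 CPM in contralateral and 65.5, 60.3, and 59.3 CPM in injured nerves. The fall was 1.71-fold in controls (log2 fold change -0.78, SE 0.09, BH-adjusted p = 6.70e-06, edgeR quasi-likelihood test) and 1.75-fold in RaptorKOs (-0.80, SE 0.12, adjusted p = 0.000159, edgeR quasi-likelihood test).

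Of the Gli factors, Gli1 and Gli2 fell after injury and Gli3 was not called. Gli2 (ENSMUSG00000048402, chr1:118834132-119053619), the main activator, had 21.9, 22.3, and 20.3 CPM in control contralateral and 5.59, 4.42, and 7.08 CPM in control injured nerves. In RaptorKOs it had 26.0, 28.0, 35.8, and 32.6 CPM in contralateral and 8.30, 10.2, and 12.0 CPM in injured nerves. The sides were far apart in both genotypes, 3.85-fold in controls (log2 fold change -1.94, SE 0.21, BH-adjusted p = 5.04e-06, edgeR quasi-likelihood test) and 3.02-fold in RaptorKOs (-1.59, SE 0.18, adjusted p = 2.43e-05, edgeR quasi-likelihood test).

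Gli1 (ENSMUSG00000025407, chr10:127329882-127341974), whose transcription is a usual readout of the pathway, had 44.4, 58.2, and 63.3 CPM in control contralateral and 25.7, 23.1, and 29.1 CPM in control injured nerves. RaptorKO nerves had 90.9, 71.2, 94.7, and 63.4 CPM on the contralateral and 43.2, 58.0, and 50.2 CPM on the injured side. Injured libraries were below contralateral ones of the same genotype. As groups the sides differed 2.17-fold in controls (log2 fold change -1.12, SE 0.15, BH-adjusted p = 4.35e-05, edgeR quasi-likelihood test) and 1.59-fold in RaptorKOs (-0.67, SE 0.16, adjusted p = 0.00449, edgeR quasi-likelihood test). RaptorKO injured nerves overlapped control contralateral nerves in Gli1. Exons of Gli1 overlap Arhgap9 and Gm47200 on the other strand over 6.55% of their length. Arhgap9 had 0.74 to 2.30 CPM in contralateral and 9.87 to 19.2 CPM in injured libraries, and the use of strand in counting is not given in the sources used here.

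Gli3 (ENSMUSG00000021318), the main repressor, had 5.73 to 7.15 CPM in control contralateral, 5.34 to 8.80 CPM in control injured, 5.36 to 9.43 CPM in RaptorKO contralateral, and 5.44 to 10.7 CPM in RaptorKO injured nerves. All 4 groups overlapped. The log2 fold change after injury was 0.03 (SE 0.27, BH-adjusted p = 0.925, edgeR quasi-likelihood test) in controls and -0.14 (SE 0.31, adjusted p = 0.714, edgeR quasi-likelihood test) in RaptorKOs.

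Levels of other cell types were measured beside these genes. Of the perineurium list 7 of 7 markers were called lower in controls and 5 of 7 in RaptorKOs, and their sum was 1071 to 1287 CPM in control contralateral, 413 to 490 CPM in control injured, 1025 to 1906 CPM in RaptorKO contralateral, and 478 to 519 CPM in RaptorKO injured nerves. Of the epineurial fibroblast list, measured although the epineurium had been removed, 3 of 6 tested were called lower and 1 higher in each genotype. Its sum was 564 to 748 CPM in control contralateral, 151 to 206 CPM in control injured, 591 to 803 CPM in RaptorKO contralateral, and 167 to 180 CPM in RaptorKO injured nerves. Of the vessel lists, 4 of 6 endothelial and 5 of 6 pericyte and smooth muscle markers were called lower in controls, with sums of 410 to 456 and 654 to 715 CPM in contralateral and 227 to 340 and 320 to 446 CPM in injured nerves. In RaptorKOs 2 of 6 of each list were called lower, and 2 endothelial and 1 pericyte marker higher. There the endothelial sums were 418 to 521 CPM in contralateral and 408 to 646 CPM in injured nerves. The pericyte and smooth muscle sums were 622 to 826 and 741 to 1082 CPM, and both lists overlapped between the sides. These lists thus moved with the fall of the members in controls, whereas macrophage markers moved the other way, with 8 of 8 called higher in each genotype and a sum of 140 to 161 CPM in control contralateral against 2459 to 3041 CPM in control injured nerves. Endoneurial fibroblast sums overlapped between the sides in controls, with 2 of 7 markers called higher and 2 lower. Of these lists, Comp of the epineurial list had at most 3 counts in every control injured library and Wif1 of the endoneurial list in every control contralateral library. Their part in the fall of Ptch1, Smo, Gli1, and Gli2 was not tested.

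**Figure D3:**
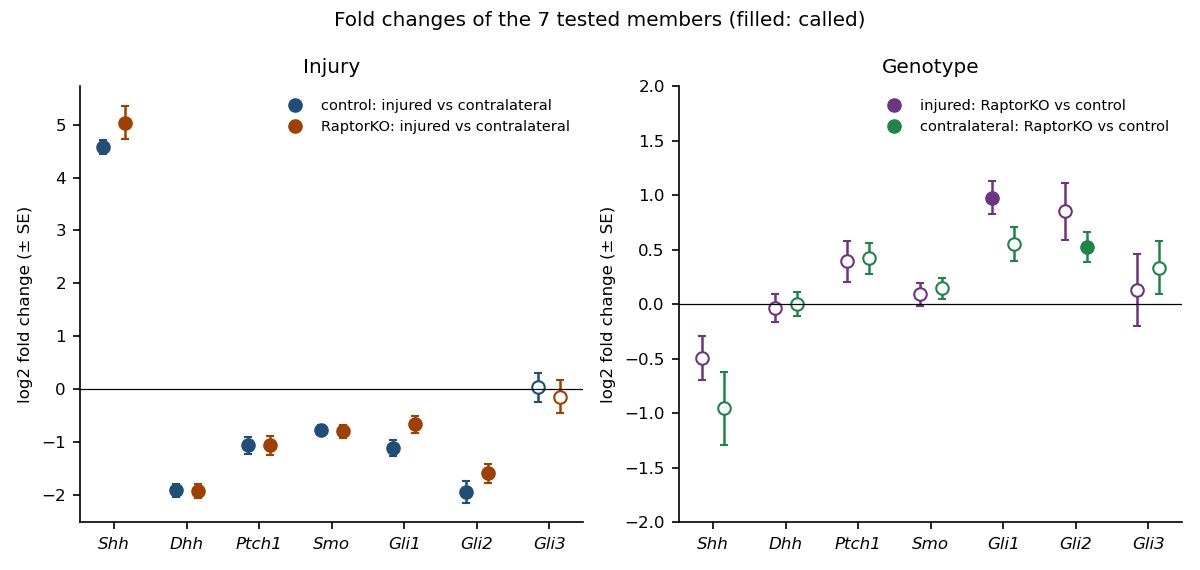
Log2 fold changes of the 7 tested members with their SE, after injury in each genotype (left) and between genotypes on each side (right, with its own scale). Filled points passed the call rule. Between genotypes the filled points are Gli1 in injured nerves (0.98) and Gli2 in contralateral nerves (0.52).

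Promoters were searched because 5 members fell together. Of the 9 members 7 have a promoter in the RefSeq table for GRCm38.p6, which gives 250 bases before and 50 after a gene's start, and Shh and Gli1 were not matched. The Gli motif GACCACCCA, on either strand, was in 83 of 32851 promoters (0.253%) and in 0 of the 7, and the AP-1 motif TGANTCA was in 2565 (7.81%) and in 0 of the 7. Among 46 promoters of other pathway genes, TGANTCA was in those of Cul1 and Igf1. The GC box GGGCGG, searched after these 2 motifs had no match, was in 11714 of all promoters (35.7%), in 34 of the 46 other pathway genes, and in 6 of the 7. The member without it, Smo, also fell, and Ihh, Hhip, and Gli3 have it. It does not overlap the other motifs in its letters. No match says only that these letters are not in the window. Promoters of Dhh (chr15:98898541-98898790, 59.6% GC) and Ptch1 (chr13:63565736-63565985, 78.4% GC) are shown as the 250 bases before the start in that table, read on the minus strand, as examples of a ligand and a receptor that fell. Capitals mark GC boxes in either orientation, 4 in Dhh and 1 in Ptch1. The start given for Ptch1 is not the outermost one, so that its window lies within the span of the gene given above, outside its exons.
Dhh promoter: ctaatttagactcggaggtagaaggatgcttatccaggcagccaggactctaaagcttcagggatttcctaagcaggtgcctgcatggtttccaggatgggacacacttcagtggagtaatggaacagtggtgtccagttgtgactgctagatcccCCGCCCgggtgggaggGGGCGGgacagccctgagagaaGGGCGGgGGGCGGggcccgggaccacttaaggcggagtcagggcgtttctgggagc
Ptch1 promoter: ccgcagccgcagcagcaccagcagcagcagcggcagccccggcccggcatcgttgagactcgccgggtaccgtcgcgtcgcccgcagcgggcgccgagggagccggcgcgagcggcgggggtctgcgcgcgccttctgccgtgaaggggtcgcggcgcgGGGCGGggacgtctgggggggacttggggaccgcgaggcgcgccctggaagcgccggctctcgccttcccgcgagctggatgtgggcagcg

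Whether deletion of Raptor changed the pathway in injured nerves was compared next. Of the 7 members tested, Gli1 was called higher, where 4.09% of 12040 genes tested were called higher and 4.44% lower. Gli1 was 1.97-fold higher in RaptorKO than in control injured nerves (log2 fold change 0.98, SE 0.15, BH-adjusted p = 0.00324, edgeR quasi-likelihood test), and the lowest RaptorKO library, at 43.2 CPM, lay above the highest control library, at 29.1 CPM. The call held under each of 15 alternatives, which include leaving out each library, with log2 fold changes of 0.86 to 1.07 and adjusted p up to 0.0219. With 0 members called lower, 1 (Shh) had an unadjusted p below 0.05, and DESeq2 and the exact test of edgeR called 0 lower.

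Markers of vessel cells moved with Gli1 in injured nerves. All 6 endothelial markers were called higher in RaptorKOs, with sums of 408 to 646 CPM against 227 to 340 CPM in controls. Of the pericyte and smooth muscle markers 5 of 5 tested were called higher, with sums of 741 to 1082 CPM in RaptorKOs against 320 to 446 CPM in controls. Of the other lists, perineurium had 1 of 6 and endoneurial fibroblast 2 of 7 markers called higher, and 3 of 9 SC markers were called lower. No marker of these lists was at 3 counts or fewer throughout an injured group. Sums of the macrophage, repair SC, and epineurial fibroblast lists overlapped between the genotypes. Macrophage sums were 1555 to 3273 CPM in RaptorKOs against 2459 to 3041 CPM in controls. RaptorKO injured 2 had the lowest macrophage sum of its group, at 1555 CPM. It also had the highest endothelial and pericyte sums, at 646 and 1082 CPM, and the most Gli1. The part of these cells in the difference of Gli1 was not tested.

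**Figure D4:**
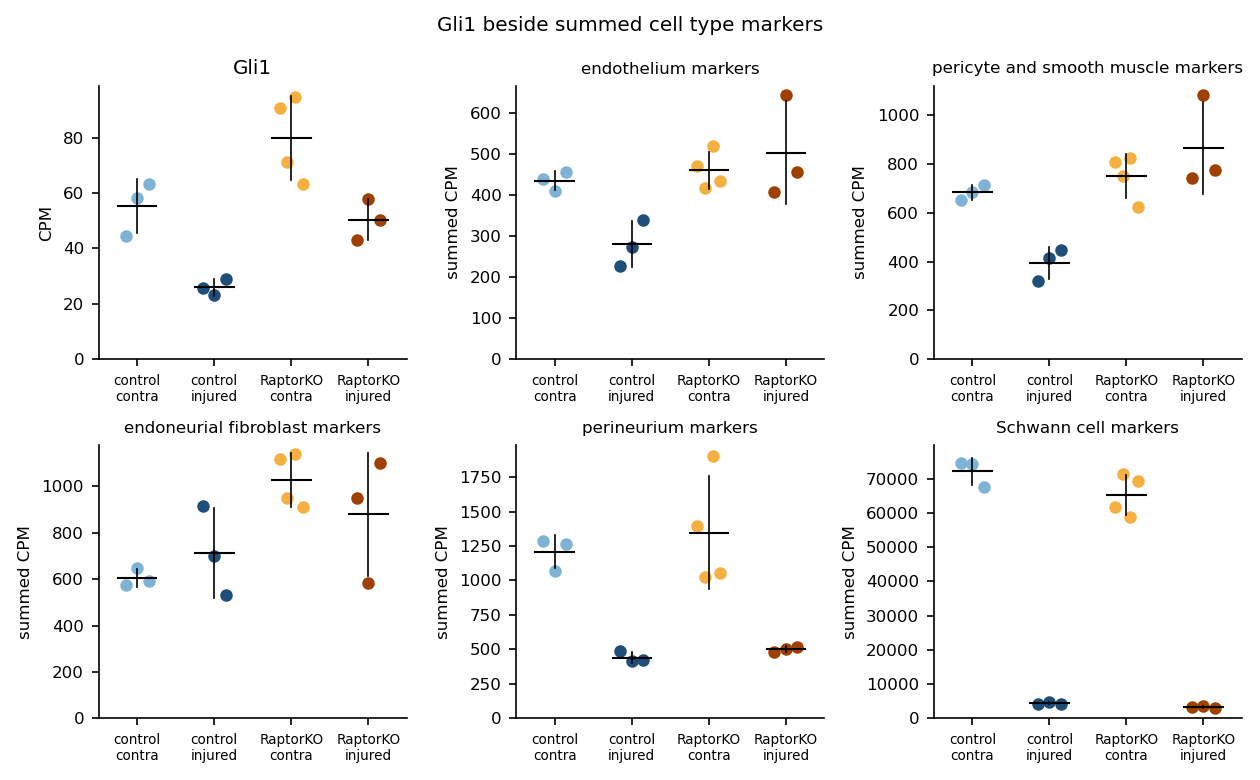
Gli1 in CPM beside the summed CPM of 5 marker lists, by library and group, with bars for the mean and SD. In injured nerves Gli1 and the endothelial and pericyte sums are higher in every RaptorKO library than in any control library, whereas the perineurium sums are 413 to 490 CPM in controls and 478 to 519 CPM in RaptorKOs and overlap.

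Gli2 and Shh were not called in injured nerves, although their groups did not overlap. Including these, 2 members lay wholly higher and 1 wholly lower in RaptorKOs, where 11.7% and 14.6% of all genes tested did so. Gli2 had a log2 fold change of 0.85 (SE 0.27, BH-adjusted p = 0.0755, edgeR quasi-likelihood test) and passed with DESeq2 (adjusted p = 0.0380). Shh had a log2 fold change of -0.49 (SE 0.20, adjusted p = 0.182, edgeR quasi-likelihood test). Without RaptorKO injured 2, which had the most Shh of its group, this was -0.78 and passed (adjusted p = 0.00663, edgeR quasi-likelihood test). The other members differed less. Ptch1 had 0.39 (SE 0.19, adjusted p = 0.251), Smo 0.09 (SE 0.11, adjusted p = 0.704), Dhh -0.03 (SE 0.13, adjusted p = 0.928), and Gli3 0.13 (SE 0.33, adjusted p = 0.876), all by edgeR's quasi-likelihood test on the log2 scale.

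In contralateral nerves Gli2 was called higher in RaptorKOs, where 4.49% of 11878 genes tested were called higher and 5.68% lower. Each RaptorKO library, from 26.0 CPM, lay above each control library, up to 22.3 CPM. As groups they differed 1.44-fold (log2 fold change 0.52, SE 0.13, BH-adjusted p = 0.0343, edgeR quasi-likelihood test). This call was close to the threshold. It was lost when any 1 of control contralateral 1, 2, and 3 or RaptorKO contralateral 3 and 4 was left out, with log2 fold changes of 0.45 to 0.55 and adjusted p of 0.0519 to 0.120 (edgeR quasi-likelihood test).

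Gli1 and Ptch1 also lay wholly higher in RaptorKO contralateral nerves, and Shh wholly lower. Thus 3 members were wholly higher and 1 wholly lower, where 9.98% and 13.7% of all genes tested were. None of these passed the test. Gli1 had a log2 fold change of 0.55 (SE 0.16, BH-adjusted p = 0.0540, edgeR quasi-likelihood test), and passed without RaptorKO contralateral 4 (adjusted p = 0.0236). Ptch1 had 0.42 (SE 0.14, adjusted p = 0.0885, edgeR quasi-likelihood test), and passed without RaptorKO contralateral 2 (adjusted p = 0.0371). Shh had -0.95 (SE 0.34, adjusted p = 0.104, edgeR quasi-likelihood test), and passed without RaptorKO contralateral 2 (adjusted p = 0.0415). DESeq2 called 3 members higher (Gli1, Gli2, and Ptch1) and Shh lower. Dhh had overlapping ranges, with a log2 difference of 0.0019 (SE 0.11), while Smo had 0.14 (SE 0.10) and Gli3 0.33 (SE 0.24). Endoneurial fibroblast markers moved with Gli1 and Gli2, with 4 of 6 tested called higher and sums of 911 to 1140 CPM in RaptorKOs against 577 to 647 CPM in controls. Macrophage markers did so too, with 4 of 7 called higher and sums of 223 to 295 CPM against 140 to 161 CPM. SC markers had 4 of 9 called lower. Repair SC sums were 123 to 129 CPM in RaptorKOs against 84.5 to 114 CPM in controls. Vessel sums overlapped, with 418 to 521 against 410 to 456 CPM for endothelium. For pericytes and smooth muscle they were 622 to 826 against 654 to 715 CPM. Wif1 had at most 3 counts in every control contralateral library. The part of these cells was not tested.

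Whether the response to injury differed between genotypes was tested as an interaction over all 13 libraries. No member was called by edgeR's quasi-likelihood test, with 0 at an unadjusted p below 0.05 and 0 called by DESeq2, where 1.07% of 12851 genes tested were called higher and 1.41% lower. Gli1 came nearest, with a difference in log2 fold change of 0.43 (SE 0.24, BH-adjusted p = 0.470, edgeR quasi-likelihood test). Shh had 0.43 (SE 0.38) and Gli2 0.33 (SE 0.26). Gli3 had -0.20 (SE 0.42), and Dhh, Ptch1, and Smo lay between -0.05 and -0.03.

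The ratio of Gli1 to Ptch1 counts, both targets of the pathway, was formed after the member values had been seen. It was 22.3% to 27.5% in control contralateral, 25.7% to 30.9% in RaptorKO contralateral, 18.6% to 37.1% in control injured, and 29.8% to 48.0% in RaptorKO injured nerves. The injured groups overlapped (exact permutation, two-sided, p = 0.30, and 0.40 after BH adjustment over 12 tests).

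The remaining pathway genes were taken from 5 lists of 71 genes in all. After injury to control nerves 11 of 55 tested rose and 24 fell, and in RaptorKOs 11 of 57 rose and 14 fell, beside 32.4% of all genes tested higher and 32.9% lower in controls and 30.5% and 28.5% in RaptorKOs. The median log2 fold change was -0.31 in controls and -0.23 in RaptorKOs, beside -0.0015 and 0.03 for all genes.

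Of the genes that process and release ligand, 1 of 5 rose and 3 fell in controls. Scube1, of a family of secreted proteins that aid ligand release, had a mean of 306 CPM (SD 46.2, n = 3) in contralateral and 63.8 CPM (SD 14.5, n = 3) in injured control nerves. The log2 fold change was -2.29 (SE 0.16, BH-adjusted p = 1.44e-07, edgeR quasi-likelihood test). Disp1, the transporter that exports lipid-modified ligand, fell by 1.28 on the log2 scale (SE 0.08) and the sheddase Adam10 fell by 1.59 (SE 0.11). Adam17, another sheddase, rose by 0.37 (SE 0.10). In RaptorKOs the same 4 genes were called in the same directions, and Hhat, the enzyme that adds palmitate to the ligands, rose by 1.06 (SE 0.32, adjusted p = 0.0148, edgeR quasi-likelihood test).

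Of the coreceptors and surface binders, 4 of 7 fell in each genotype. The coreceptors Cdon and Boc fell, with log2 fold changes of -2.20 (SE 0.18) and -2.11 (SE 0.38) in controls and -2.09 (SE 0.17) and -1.68 (SE 0.46) in RaptorKOs. The glypicans Gpc6 and Gpc3 also fell in both, Gpc6 with a wide spread in RaptorKO contralateral nerves (mean 77.9 CPM, SD 76.5, n = 4). Adjusted p for Cdon, Boc, and Gpc6 was between 4.79e-07 and 0.0225 (edgeR quasi-likelihood test).

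Of the genes of Smo regulation and the cilium, 4 of 16 rose and 9 fell in controls, and 2 rose and 4 fell in RaptorKOs. Evc2, which works with Smo at the base of the cilium, changed most, with log2 fold changes of -2.70 (SE 0.10, BH-adjusted p = 7.30e-10, edgeR quasi-likelihood test) in controls and -2.28 (SE 0.15, adjusted p = 5.54e-07, edgeR quasi-likelihood test) in RaptorKOs. Gpr161, a ciliary receptor that restrains the pathway, fell by 1.02 (SE 0.16) and Efcab7, a partner of the Evc proteins, by 1.09 (SE 0.31) in controls. The kinesin subunit Kif3a fell by 0.84 (SE 0.09) in RaptorKOs. Arrb2 and the kinase Grk2, both of which act on the Smo protein, rose in controls, by 0.99 (SE 0.11) and 0.50 (SE 0.10).

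Of the genes of Gli regulation, 1 of 13 rose and 7 fell in controls, and 1 rose and 2 fell in RaptorKOs. Stk36, the mammalian homolog of the fly kinase fused, rose by 1.29 (SE 0.28) in controls and 1.39 (SE 0.40) in RaptorKOs. Btrc and Cul3, components of the ubiquitin ligases that act on Gli proteins, fell by 1.09 (SE 0.16) and 0.77 (SE 0.09) in controls.

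Of the described targets beyond the members, 5 of 14 rose and 1 fell in controls, and 6 of 16 rose and 1 fell in RaptorKOs. Ccnd1, or cyclin D1, had 98.5 CPM (SD 6.89, n = 3) in contralateral and 1177 CPM (SD 145, n = 3) in injured control nerves (log2 fold change 3.55, SE 0.12, BH-adjusted p = 3.72e-10, edgeR quasi-likelihood test). Igf1, a growth factor, rose by 2.51 (SE 0.15) and Snai1, a transcription factor, by 1.38 (SE 0.35). These genes are also targets of other pathways.

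**Figure D5:**
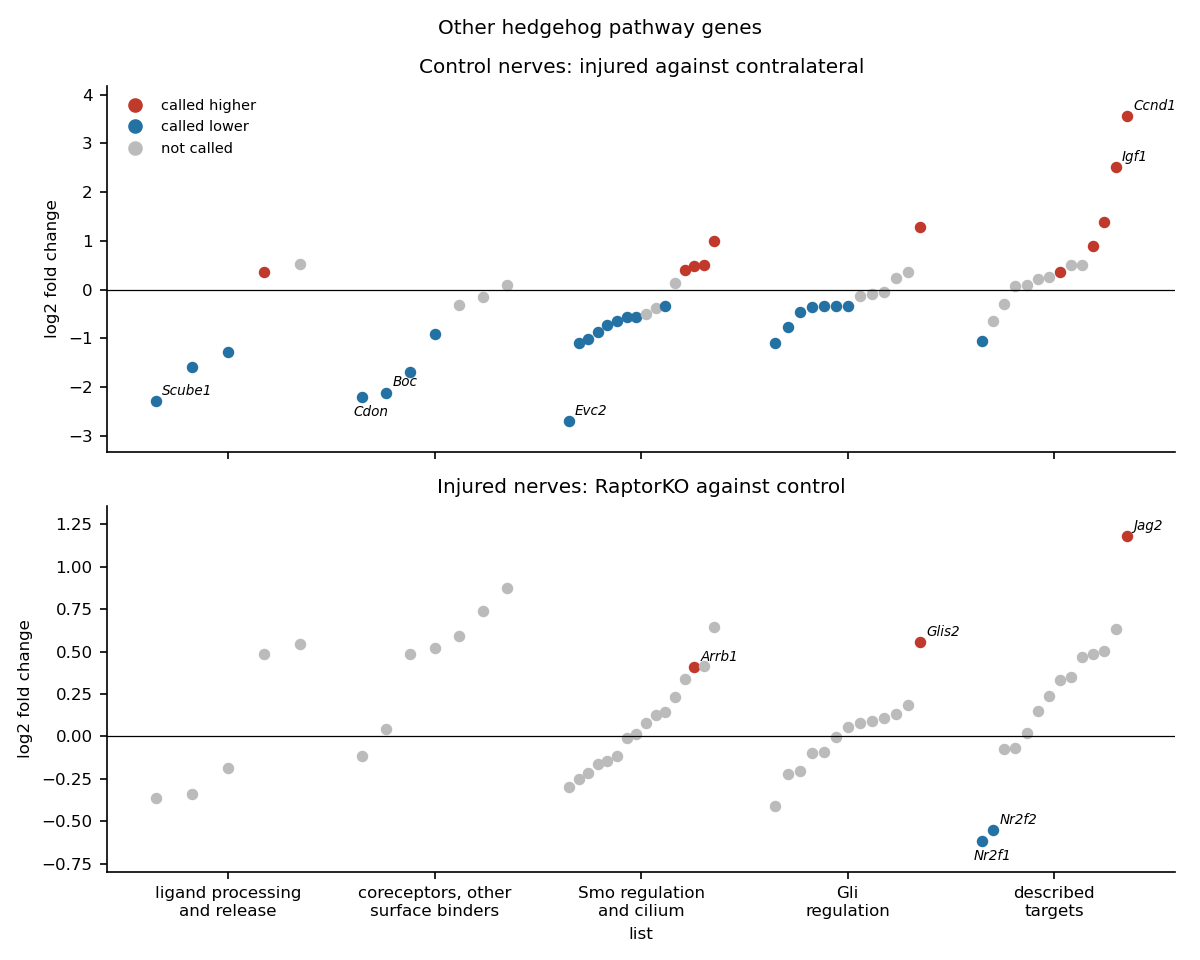
Log2 fold changes of the other pathway genes by list, after injury in control nerves (top) and between genotypes in injured nerves (bottom). Points are genes, sorted within a list and colored by call, and names mark called genes (in the top panel only those beyond 2 on the log2 scale). After injury 24 of 55 are called lower and 11 higher, and between genotypes 3 are called higher and 2 lower.

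Between genotypes few of these genes were called. In injured nerves 3 of 55 were higher in RaptorKOs and 2 lower, near the 4.09% and 4.44% of all genes tested. The number higher was 0 without RaptorKO injured 1, 1 without control injured 2, and 5 without RaptorKO injured 2. The Notch ligand Jag2 was higher, with 16.3 CPM (SD 3.04, n = 3) against 7.29 CPM (SD 1.57, n = 3), by a log2 fold change of 1.18 (SE 0.23, BH-adjusted p = 0.0104, edgeR quasi-likelihood test), and lost the call without RaptorKO injured 1 (adjusted p = 0.0553). The nuclear receptors Nr2f1 and Nr2f2 were lower, by -0.62 (SE 0.12, adjusted p = 0.0107, edgeR quasi-likelihood test) and -0.55 (SE 0.11, adjusted p = 0.00916, edgeR quasi-likelihood test), and Nr2f1 lost the call without control injured 2 (adjusted p = 0.0506). Glis2, a zinc finger factor related to the Gli proteins, and Arrb1 were higher by 0.56 (SE 0.13) and 0.41 (SE 0.11). Glis2 lost its call without any 1 of 4 libraries, that is all but RaptorKO injured 2 and 3 (adjusted p up to 0.132), and Arrb1 without any 1 of 5, that is all but RaptorKO injured 2 (adjusted p up to 0.160).

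In contralateral nerves 5 of 55 were higher in RaptorKOs and 3 lower, beside 4.49% and 5.68% of all genes tested, with 2 to 7 higher and 0 to 4 lower when 1 library was left out (fewest without control contralateral 2, most without RaptorKO contralateral 2). The glypican Gpc3 was higher by a log2 fold change of 0.90 (SE 0.13, BH-adjusted p = 0.00212, edgeR quasi-likelihood test), with means of 757 CPM (SD 147, n = 4) against 410 CPM (SD 18.0, n = 3), and Ccnd1 by 0.59 (SE 0.08, adjusted p = 0.00128, edgeR quasi-likelihood test). Both kept the call with each library left out. Gpc4 and Igf1 were higher by 0.46 (SE 0.12) and 0.83 (SE 0.23). Scube1, Adam10, and Spop were lower by -0.54 (SE 0.13), -0.37 (SE 0.08), and -0.31 (SE 0.07). The calls of Gpc4 and Igf1 were each lost without any 1 of 6 of the 7 libraries (kept without RaptorKO contralateral 4 and 2, adjusted p otherwise up to 0.120 and 0.162). Those of Scube1 and Spop were lost without any 1 of 3 libraries, RaptorKO contralateral 1 and control contralateral 2 in each case, joined by control contralateral 1 for Scube1 and control contralateral 3 for Spop. Adjusted p was then up to 0.115 (edgeR quasi-likelihood test). The call of Adam10 was lost without control contralateral 2 or 3, with adjusted p up to 0.0809.

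Genes with the most similar profiles were sought for Shh, Dhh, and Gli1, by the root mean square (RMS) difference of log2 CPM centered on each gene's mean over 13 libraries, among 12850 genes. For Shh these were Syt4 (0.34), Tubb3 (0.38), Gtse1 (0.41), Mastl (0.44), and Plk1 (0.45), where the median over all genes was 2.52. For Dhh they were Anks1 (0.098), Sorbs3 (0.11), and Pfkm, Sh3tc2, and Apbb1 (0.14 each), with a median of 1.02. For Gli1 they were Card10 (0.19), Zfp423 (0.20), Fzd4 (0.20), C130074G19Rik (0.22), and Hspa12b (0.22), with a median of 0.73. None of these is a member of the pathway lists.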

How the data were processed

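Whole-nerve RNA, taken distal to the crush on the injured side, was sequenced as single-end reads with a strand-specific kit. The deposited values are estimated counts per gene, which the authors made with RSEM 1.2.22 on GRCm38 after trimming with Trimmomatic. Between 24.9% and 27.9% of values in a library were not whole and were rounded. Multigene and overlapping reads were thus shared out by RSEM's estimates. Tests used R 4.3.3 and edgeR 4.0.16 (TMM, quasi-likelihood) within the libraries of each comparison, with the interaction over all 13. Genes needed 50 counts in 2 libraries. On counts simulated with the depths and dispersions of the real libraries, 74.1% of 193 changed genes were recovered for control injury, and 8.33% of calls were false. For the genotype comparison of injured nerves the shares were 69.4% of 196 and 6.85%, and for the interaction 41.9% of 198 and 2.35%. Each simulation changed 200 genes at fixed fold sizes before the count filter, whereas 8119 genes were called for control injury. These rates hold for that setting only. DESeq2 1.42.0 and the other alternatives are given under the processing results. Named genes were the members, up to 3 called genes a list, direction, and comparison, taken by size of fold change, and the 5 most similar profiles of Shh, Dhh, and Gli1. Within a genotype the titles number the injured and contralateral nerve alike, so equal numbers were read as 1 mouse. Both nerves of control 3, unlike all others, held many Xist and few Y-linked counts, which bears on that pair only. Deviations of pairs with equal numbers correlated at 0.067, 0.13, and 0.30 in controls and -0.028, 0.20, and 0.19 in RaptorKOs. Those of unequal numbers correlated at -0.23 to 0.14 in controls and -0.29 to 0.16 in RaptorKOs. In both genotypes injured 1 correlated more with contralateral 2 (0.14 and 0.089) than with contralateral 1. The members and lists were chosen with earlier results of these data known. Figures used matplotlib 3.10.9. One gene of the lists, which stays in their counts, and the driver of the Cre are not reported here.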

Additional observations from a re-analysis of the deposited data

Results flagged for a closer look

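Ihh was detected in 1 of the 4 RaptorKO contralateral libraries, with 0.129 CPM, which stands for 1 count, in replicate 4 and 0 in the others, so that this library stands apart by Dixon's criterion. Any single count beside 3 values of 0 would do so, and the criterion's rate of about 1 in 20 groups by chance, over 12 groups of 4 tested, does not hold at this limit of detection.

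The response to injury differed between genotypes for 4 other pathway genes given here, by edgeR's quasi-likelihood test of the interaction over all 13 libraries. Of all 12851 genes tested 1.07% were called higher and 1.41% lower. By list, 1 of 5 genes of ligand processing and release was called higher and 1 lower, and 1 of 17 described targets higher and 1 lower. Of 16 genes of Smo regulation and the cilium 0 were higher and 1 lower. None was called of 7 surface binders and 13 genes of Gli regulation. Scube1 fell less in RaptorKOs, with means of 306 and 63.8 CPM (SD 46.2 and 14.5) in control contralateral and injured nerves and 208 and 88.3 CPM (SD 26.7 and 12.7) in RaptorKO nerves. The difference in log2 fold change, RaptorKO minus control, was 1.03 (SE 0.23, BH-adjusted p = 0.0299). Disp1 fell more, from 168 to 49.5 CPM (SD 8.27 and 3.78) in RaptorKOs against 154 to 64.3 CPM (SD 6.57 and 1.70) in controls, a difference of -0.51 (SE 0.11, adjusted p = 0.0264). Jag2 went from 14.96 to 7.29 CPM (SD 1.86 and 1.57) in controls and from 14.96 to 16.3 CPM (SD 1.42 and 3.04) in RaptorKOs, a difference of 1.16 (SE 0.26, adjusted p = 0.0327, and 0.0675 with the mouse as a block). Ccnd1 rose in both genotypes and less in RaptorKOs, from 147 to 1105 CPM (SD 6.36 and 61.8) against 98.5 to 1177 CPM (SD 6.89 and 145), a difference of -0.66 (SE 0.14, adjusted p = 0.0221).

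Each of these calls was lost without at least 1 library. That of Ccnd1 was lost without control contralateral 2 (adjusted p = 0.0723). With 1 of the 13 libraries left out at a time, the call of Scube1 was lost in 7 cases, namely control contralateral 1 and 2, control injured 2 and 3, RaptorKO contralateral 1, and RaptorKO injured 2 and 3 (adjusted p up to 0.0866). For Disp1 these were control contralateral 2 and 3, each control injured library, RaptorKO contralateral 1, and RaptorKO injured 1 (up to 0.0805). For Jag2 the call was kept only without control contralateral 2, control injured 2, RaptorKO contralateral 2, or RaptorKO injured 3, and was otherwise lost (up to 0.0882).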

How the results depend on the processing

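Of 588 recomputed fold changes of the members, 563 kept their direction and side of the threshold, 7 lost a call, 18 gained one, and 0 reversed. All calls after injury held in both genotypes under every alternative run. In injured nerves 1 member was higher and 0 lower in RaptorKOs. DESeq2, the exact test of edgeR, and a fit of all 13 libraries each gave 2 higher (Gli2 added), and no count filter gave 3 higher (Gli2 and Ptch1 added) and 1 lower (Shh). Leaving out a library gave 0 to 1 lower (Shh, without RaptorKO injured 2). The all-gene count of 1028 became 1556 without a count filter, 351 at an adjusted p below 0.01, and 447 to 999 with a library left out. In contralateral nerves 1 member was higher and 0 lower. DESeq2 gave 3 higher and 1 lower, no count filter 2, the exact test 2, and an adjusted p below 0.01 gave 0 higher. Leaving out a library gave 0 to 2 higher and 0 to 1 lower. The fit of all 13 libraries replaced Gli2 (adjusted p = 0.0767) by Gli1 (adjusted p = 0.0486). The all-gene count of 1208 became 477 at an adjusted p below 0.01 and 524 to 1418 with a library left out. For the interaction the count of 318 became 598 with DESeq2, 84 at an adjusted p below 0.01, and 113 to 284 with libraries left out, the lowest without both libraries of control replicate 3, an alternative chosen after seeing the data. In this alternative 1 member was higher and 5 lower after injury to control nerves, as before. The causes of these shifts were not tested, beyond the fewer libraries or the stricter threshold.

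With the mouse as a block (replicate block), 8026 and 7267 genes were called after injury in controls and RaptorKOs and 353 for the interaction, and no call of a member changed in these paired comparisons. RaptorKO contralateral 4 has no injured partner and is a block of its own. Of the other pathway genes named, Jag2 lost its interaction call under the block. Between genotypes equal numbers are different mice and share only a number. Blocking on it called 796 genes in injured and 1811 in contralateral nerves, added Gli1 (adjusted p = 0.00583) and Ptch1 (adjusted p = 0.0210) to Gli2 (adjusted p = 0.0457) for 3 contralateral members higher, and lost Arrb1 and Glis2 in injured nerves.

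Depth limits Ihh and Hhip, with at most 12 counts in a library, and Shh in contralateral nerves. Whole-nerve RNA does not separate cell types, with 3 or 4 libraries a group.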
